A study of Mus musculus with 36 samples.

Results

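Liver tumours of the AKT-CAT mouse model with DDC were compared with liver under DDC alone, to ask how the tumour tissue differs from the injured liver it is set against. The members were the 7 arrays, of 36 arrays in 10 groups in the series, whose signal columns are titled for these 2 groups. There were 4 arrays of AKT-CAT DDC tumours, labelled Tu_AKTCAT_DDC (liver tumour tissue, AKTCAT_DDC, strain FVB/n), and 3 arrays of DDC-only liver, labelled DDC_only (liver, strain FVB/n). For the test of where the result differs without DDC, 4 arrays of AKT-CAT tumours without DDC (Tu_AKTCAT) and 3 of PBS control liver (PBS_only) of the same strain were added, and the whole series entered the fit. In the published AKT-CAT model the second oncogene is an activated beta-catenin, whereas the labels give the abbreviation alone. Sex, age, dose and duration are not given in the sources used here, and the labels do not say that the arrays of a group came from separate animals, so p-values measure the spread between these samples, which may be technical.

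DDC (diethoxycarbonyl-dihydrocollidine) is a feed compound that blocks ferrochelatase, the last enzyme of heme synthesis, so that porphyrin accumulates, bile ducts are plugged and portal inflammation, ductular reaction and keratin aggregates follow. Beta-catenin, the effector of Wnt signalling, sets hepatocyte zonation: it turns on the pericentral programme (glutamine synthesis, some cytochromes P450) and holds down the periportal one (urea cycle, gluconeogenesis, amino acid breakdown). AKT, the kinase downstream of insulin and PI3K, promotes lipid synthesis through SREBP factors and restrains FOXO factors.

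Tumour arrays 1 and 2 lay on the same slide as the 3 DDC-only arrays, and tumour arrays 3 and 4 on another slide, on which no DDC-only array lay. Between 12013 and 12721 of 25697 probes (46.7% to 49.5%) were detected (detection p under 0.05) on the tumour arrays, and between 11985 and 12413 (46.6% to 48.3%) on the DDC-only arrays. Within the groups, arrays correlated at 0.979 to 0.989 (tumours) and 0.976 to 0.983 (DDC-only liver). DDC-only array 2 stood apart from DDC-only arrays 1 and 3 in several interferon-stimulated genes and in *Slc7a11*, and those results are given without it too. Levels below are log2 intensities after background correction and quantile normalization, from the brightest probe of each gene. For genes named by the rule given under processing, other probes are given where their difference was over 1 away from that of the brightest, or of opposite sign. For list members named after their values were seen, other probes are not given. Per-array values run in array order, so that the first 2 tumour values are from the shared slide. Differences are log2, tumours minus DDC-only liver, with the standard error of the limma fit, and a gene is called at an adjusted p under 0.05. Low levels are compressed by an offset in the correction, so that fold changes of dim probes are understated, and the number of arrays limits the precision. In bulk tissue, fewer cells of a type and less RNA per cell cannot be told apart.

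Of 10765 genes tested, 1752 were called (16.3%), 963 higher in the tumours (8.95%) and 789 lower (7.33%). The groups' values did not overlap for 1503 of the called genes, and 894 differed by at least 2-fold. Over all genes tested, the groups did not overlap in 14.7% with the tumours higher and in 10.9% with the tumours lower. Since most called genes did not overlap, a lack of overlap stated below for called genes largely follows from the call and adds no support. The median gene differed by 0.05. With median scaling in place of quantile normalization that median was 0.21, and 1397 genes were called higher and 511 lower. In a fit with slide as a block, 443 genes were called higher and 565 lower, and on the shared slide alone 338 and 516. The number called was 1075 without DDC-only array 2, 1131 without DDC-only array 3 and 1143 without tumour array 1. Of the 770 genes in the 39 lists used below, 607 were tested, 94 had no probe here and 69 were not detected on 3 arrays.

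The largest rises were in genes of diverse roles. They were taken among called genes whose groups did not overlap, so the lack of overlap follows from the choice. *Sdcbp2*, which encodes the PDZ protein syntenin-2, read 12.39, 12.004, 12.08 and 12.08 in the tumours, against 7.70, 6.82 and 8.55 in DDC-only liver, a difference of 4.45 ± 0.36, adjusted p = 8.46e-10 (4.34 and 2.92 for other probes). *Elfn2*, a leucine-rich repeat membrane protein known from neurons, read 9.73, 8.38, 9.15 and 9.21 in the tumours, against 4.38, 4.58 and 4.49 in DDC-only liver. It was below detection on each DDC-only array and was at least 16.05-fold higher in the tumours (difference 4.64 ± 0.35, adjusted p = 2.12e-10), where "at least" means the tumour mean over the lowest level that could be detected. For both genes every tumour value lay far above every DDC-only value. *Mogat1*, a monoacylglycerol acyltransferase of triglyceride synthesis, read 9.05, 8.59, 8.91 and 8.57 in the tumours, against 5.04, 4.68 and 4.79 in DDC-only liver, at least 12.7-fold higher (difference 3.94 ± 0.43, adjusted p = 1.18e-07). *St6galnac2*, a sialyltransferase, read 10.22, 9.94, 9.66 and 9.18 in the tumours, against 5.61, 5.74 and 6.68 in DDC-only liver (difference 3.74 ± 0.45, adjusted p = 5.93e-07). Each tumour value of both genes exceeded each DDC-only value. *Mup2*, of the major urinary protein cluster whose probes may read more than 1 member, read 10.43, 9.89, 13.01 and 11.39 in the tumours, against 6.51, 6.09 and 7.65 in DDC-only liver (difference 4.43 ± 0.72, adjusted p = 5.44e-05), and another probe gave 1.32. *Clstn3*, the gene of calsyntenin-3, read 10.04, 9.45, 9.49 and 9.13 in the tumours, against 5.49, 6.23 and 6.30 in DDC-only liver (difference 3.52 ± 0.44, adjusted p = 8.85e-07), but another probe of it gave 0.60. The next rises were in *Espn*, which encodes the actin-bundling protein espin (3.46 ± 0.55), *Amn*, the gene of amnionless, a partner of cubilin in endocytosis (3.46 ± 0.50), *Ang4*, an angiogenin of the ribonuclease family (3.40 ± 0.48), *Fchsd1* (3.19 ± 0.31), *Paqr9* (3.17 ± 0.28) and *Spire2*, an actin nucleator (3.05 ± 0.36). Other probes of *Espn* gave 3.59, 0.03 and 0.25, and of *Fchsd1* 0.42. With slide as a block, the difference was 3.41 for *Mup2*. The difference was 3.82 for *Mup2* without tumour array 3.

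The largest falls, taken by the same rule among genes without overlap, included hepatocyte enzymes and secreted proteins. *Cyp2f2*, a cytochrome P450 of periportal hepatocytes, read 5.58, 5.34, 6.64 and 6.23 in the tumours, against 12.26, 12.27 and 12.23 in DDC-only liver, a difference of -6.30 ± 0.67, adjusted p = 7.04e-08, or 79.0-fold lower. The DDC-only values were nearly identical to one another, and the tumour values lay near the limit of detection. *Cyp2b10*, the classical target of the receptor CAR, read 5.79, 5.16, 5.67 and 5.77 in the tumours, against 9.83, 11.48 and 10.39 in DDC-only liver (difference -4.97 ± 0.92, adjusted p = 2.76e-04), although another probe gave -0.04. No tumour value of either P450 reached the DDC-only range. *Igfbp2*, an insulin-like growth factor binding protein secreted by the liver, read 5.18, 4.97, 6.17 and 6.81 in the tumours, against 10.98, 10.64 and 10.61 in DDC-only liver (difference -4.96 ± 0.77, adjusted p = 2.87e-05). *Aspg*, an asparaginase, read 4.78, 4.94, 4.95 and 4.58 in the tumours, against 10.03, 9.09 and 9.42 in DDC-only liver, was below detection on each tumour array and was at least 21.0-fold lower (difference -4.70 ± 0.55, adjusted p = 5.12e-07). *Serpina1c* and *Serpina1a*, genes of the alpha-1-antitrypsin cluster whose probes may read more than 1 member, differed by -4.38 ± 0.46 and -3.63 ± 0.45. *Gdf10*, a BMP family ligand, read 5.92, 6.80, 6.81 and 7.53 in the tumours, against 10.54, 10.97 and 10.35 in DDC-only liver (difference -3.86 ± 0.47, adjusted p = 7.06e-07). *Ntrk2*, a neurotrophin receptor, differed by -3.81 ± 0.64, *Cyp2b23* by -3.73 ± 0.56 and *Tspan8*, a tetraspanin, by -3.58 ± 0.77. After blocking on slide, the difference was -5.66 for *Igfbp2*.

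**Figure D1:**
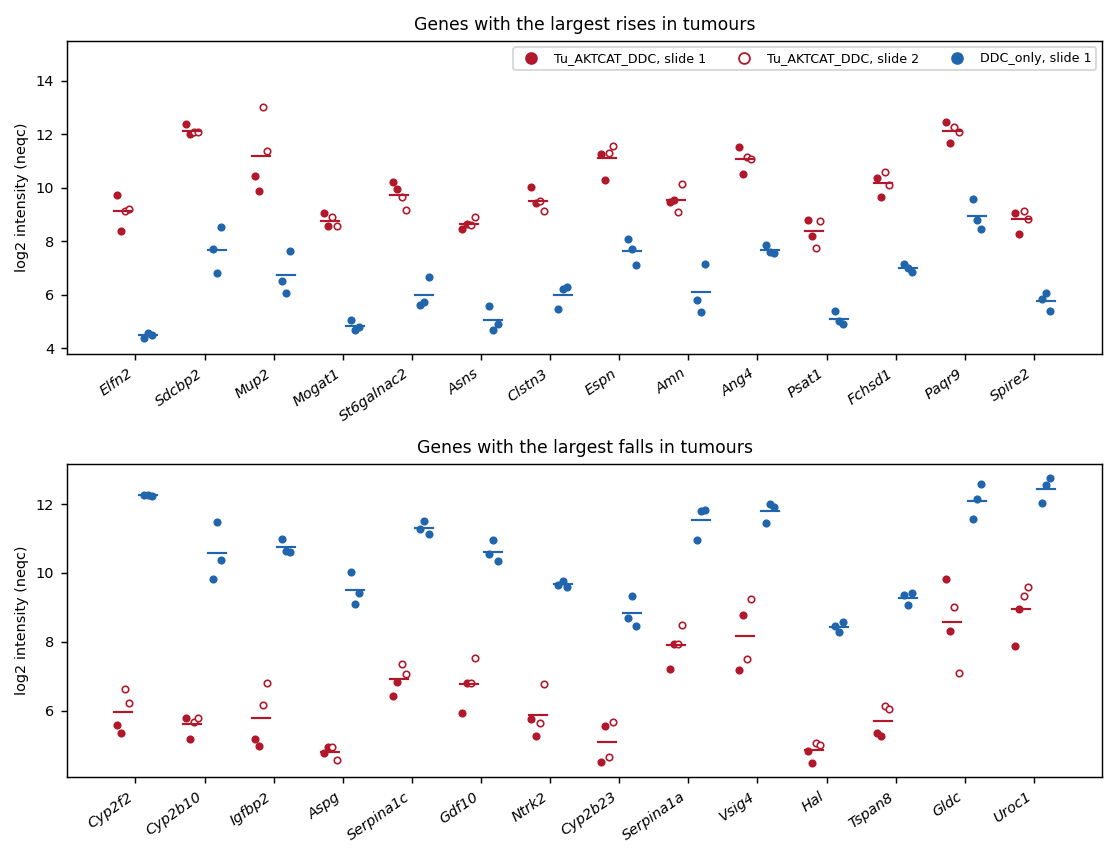
Log2 intensity (y axis) of the 14 genes with the largest rises (top) and the 14 with the largest falls (bottom) in the tumours among called genes whose groups do not overlap. Points are single arrays, tumours in red (open on the slide without DDC-only arrays) left of DDC-only liver in blue, and bars are group means. Because genes without overlap were chosen, filled and open tumour points lie on the same side of the DDC-only points for each of these 28 genes.

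The genes of the model's drivers were not called against DDC-only liver. *Ctnnb1*, the beta-catenin gene, read 11.53, 11.60, 11.38 and 11.27 in the tumours, against 11.13, 11.22 and 11.52 in DDC-only liver, a difference of 0.16 ± 0.18, adjusted p = 0.646 (-0.09 for another probe). In the test of where the result differs without DDC, *Ctnnb1* was called, at -0.90 (tumour minus control liver, with DDC minus without). *Akt1* was detected on 1 of 4 tumour arrays and 1 of 3 DDC-only arrays and differed by -0.09 ± 0.22, adjusted p = 0.854. Whether these probes can read the injected constructs was not tested.

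Wnt feedback targets moved in both directions. Of 17 listed genes 12 were tested, 4 were called higher and 2 lower, with a median of 0.18. *Axin2*, a scaffold of the beta-catenin destruction complex that Wnt signalling induces as a brake, read 9.25, 9.39, 9.91 and 9.54 in the tumours, against 6.94, 6.45 and 6.85 in DDC-only liver, a difference of 2.78 ± 0.34, adjusted p = 8.64e-07. *Tbx3*, a T-box factor downstream of beta-catenin in liver, read 9.67, 10.37, 10.17 and 10.60 in the tumours, against 7.55, 7.70 and 7.79 in DDC-only liver, a difference of 2.52 ± 0.30, adjusted p = 5.67e-07 (0.95 and 2.46 for other probes). The tumour and DDC-only values of both genes were far apart. *Sp5*, a zinc-finger target of Wnt, read 7.05, 7.33, 7.87 and 8.13 in the tumours, against 5.76, 4.79 and 5.58 in DDC-only liver (difference 2.22 ± 0.57, adjusted p = 0.00655). Its values did not overlap. *Lgr5*, the receptor of R-spondins that marks pericentral hepatocytes, read 6.41, 6.95, 6.58 and 7.02 in the tumours, against 5.48, 4.90 and 4.55 in DDC-only liver (difference 1.76 ± 0.34, adjusted p = 4.09e-04). The calls lower in the tumours were *Rspo3* and *Ccnd1*. *Rspo3*, an R-spondin ligand made by central vein endothelium, read 4.77, 4.79, 5.20 and 5.06 in the tumours, against 7.03, 6.98 and 7.24 in DDC-only liver (difference -2.13 ± 0.31, adjusted p = 1.08e-05). *Ccnd1*, the cyclin D1 gene, read 12.38, 12.44, 10.98 and 13.17 in the tumours, against 13.96, 13.60 and 13.20 in DDC-only liver (difference -1.35 ± 0.38, adjusted p = 0.0130). *Notum*, a secreted Wnt inhibitor, read 6.65, 7.999, 7.51 and 8.11 in the tumours, against 8.09, 8.26 and 8.93 in DDC-only liver and was not called (-0.86 ± 0.50, adjusted p = 0.270). With slide blocked, the calls of the list were 3 higher and 1 lower. The lower one was *Rspo3*, so *Ccnd1* was no longer called, and the adjusted p was 0.0913 for *Sp5*. Dropping a single array gave an adjusted p as high as 0.0531 for *Sp5* (without DDC-only array 2).

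In the RefSeq promoter table (GRCm38.p6), 5 tested Wnt feedback genes had an entry, and in the 250 bases before the start 1 of them, *Sp5*, held the TCF core letters CTTTGA on either strand, which 13.8% of 32851 promoters hold. The *Sp5* window, chr2:70474673-70474922 on the plus strand, is shown because it holds these letters at 2 places, in capitals, with the gene's start after the last base. The match is a description of the letters and not of binding.
Sp5: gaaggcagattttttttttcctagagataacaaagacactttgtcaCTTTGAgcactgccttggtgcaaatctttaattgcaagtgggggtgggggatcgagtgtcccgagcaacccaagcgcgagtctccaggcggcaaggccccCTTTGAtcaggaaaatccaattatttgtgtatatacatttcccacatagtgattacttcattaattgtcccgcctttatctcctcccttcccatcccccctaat

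Pericentral genes rose in part, and *Glul*, *Cyp2e1* and *Cyp1a2* were not among the calls. Of 19 listed genes 14 were tested, 7 were called higher and 0 lower, with a median of 1.04. *Slc1a2*, the glutamate transporter of pericentral hepatocytes, read 9.59, 11.28, 9.36 and 10.98 in the tumours, against 7.49, 7.14 and 8.58 in DDC-only liver, a difference of 2.57 ± 0.66, adjusted p = 0.00655, while other probes gave 1.72, -0.05 and 2.21. Tumour arrays 2 and 4 were higher than 1 and 3, and each tumour value exceeded each DDC-only value. *Rgn*, regucalcin, read 7.18, 6.19, 7.44 and 8.07 in the tumours, against 5.87, 5.36 and 5.10 in DDC-only liver (difference 1.78 ± 0.34, adjusted p = 4.09e-04). *Aldh3a2*, a fatty aldehyde dehydrogenase, read 14.24, 14.20, 14.43 and 14.49 in the tumours, against 13.03, 12.81 and 12.94 in DDC-only liver (difference 1.41 ± 0.20, adjusted p = 5.91e-06). For both, each tumour value exceeded each DDC-only value. *Oat*, ornithine aminotransferase, read 13.38, 14.66, 13.47 and 14.23 in the tumours, against 12.66, 12.55 and 13.001 in DDC-only liver (difference 1.20 ± 0.40, adjusted p = 0.0353). *Slc13a3*, a dicarboxylate transporter, differed by 1.23 ± 0.42. *Glul*, glutamine synthetase, the textbook target of beta-catenin in liver, is named here after its values were seen: it read 5.21, 5.13, 5.81 and 6.84 in the tumours, against 4.48, 4.80 and 4.56 in DDC-only liver, was detected on 3 of 4 tumour arrays and 0 of 3 DDC-only arrays, and was not called (1.14 ± 0.51, adjusted p = 0.132). The *Glul* probe read near the limit of detection, and whether it reports the abundance of *Glul* RNA was not tested. Like *Glul*, *Cyp2e1* and *Cyp1a2*, P450s of the same zone, did not pass, at 0.30 ± 0.45 and -0.69 ± 0.59. Among these genes the calls were 3 higher and 1 lower with slide as a block, 2 higher and 1 lower on the shared slide alone and 3 in all without DDC-only array 2. Under the slide block, the adjusted p was 0.250 for *Slc13a3* and 0.0890 for *Oat*. Omission of 1 array gave an adjusted p as high as 0.155 for *Slc13a3* (without DDC-only array 1) and 0.123 for *Oat* (without DDC-only array 2). The call of *Rgn* ended on the shared slide alone and that of *Slc13a3* ended with the mean over all probes of a gene.

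Most tested periportal genes fell. Of 18 listed 14 were tested, 0 were called higher and 10 lower, with a median of -2.63, against 0.05 over all genes. Besides *Cyp2f2*, the largest falls were in enzymes of amino acid breakdown. *Hal*, histidine ammonia-lyase, the first step of histidine breakdown, read 4.84, 4.48, 5.07 and 4.99 in the tumours, against 8.46, 8.29 and 8.57 in DDC-only liver (difference -3.60 ± 0.53, adjusted p = 1.50e-05). *Uroc1*, urocanase, the next enzyme of that pathway, read 7.89, 8.96, 9.34 and 9.60 in the tumours, against 12.04, 12.55 and 12.74 in DDC-only liver (difference -3.50 ± 0.31, adjusted p = 2.96e-09). *Ftcd*, which passes the histidine-derived group to folate, read 8.67, 9.61, 9.47 and 10.24 in the tumours, against 12.75, 12.84 and 13.05 in DDC-only liver (difference -3.38 ± 0.30, adjusted p = 2.96e-09). For these 3 enzymes of histidine breakdown, each tumour value was lower than any DDC-only value. *Gldc*, the decarboxylase of the glycine cleavage system, read 9.82, 8.32, 9.02 and 7.10 in the tumours, against 11.56, 12.15 and 12.59 in DDC-only liver (difference -3.53 ± 0.43, adjusted p = 7.04e-07). Tumour array 4 was the lowest of the group for *Gldc* and the highest for *Uroc1* and *Ftcd*. The number called was 1 higher and 10 lower under median scaling.

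Urea cycle genes fell too. All 8 listed genes were tested, 0 were called higher and 5 lower, with a median of -1.28. *Cps1*, carbamoyl phosphate synthetase, the entry enzyme, read 10.07, 10.94, 10.07 and 10.71 in the tumours, against 13.01, 13.99 and 13.67 in DDC-only liver (difference -3.11 ± 0.46, adjusted p = 1.43e-05). *Arg1*, arginase, the last enzyme, read 11.32, 11.31, 9.58 and 10.79 in the tumours, against 13.84, 13.66 and 13.38 in DDC-only liver (difference -2.88 ± 0.30, adjusted p = 6.04e-08). *Asl*, argininosuccinate lyase, read 8.48, 9.61, 8.15 and 8.33 in the tumours, against 10.15, 10.26 and 10.35 in DDC-only liver (difference -1.61 ± 0.44, adjusted p = 0.0106). The tumours were below DDC-only liver on each array for *Cps1*, *Arg1* and *Asl*. *Otc*, ornithine transcarbamylase, differed by -1.48 ± 0.38, although another probe gave 0.16, and *Slc25a15*, the mitochondrial ornithine carrier, by -0.89 ± 0.31. Calls in the list numbered 3 under median scaling, 3 with slide as a block and 3 on the shared slide alone. In the fit blocked on slide, the adjusted p was 0.140 for *Asl* and 0.307 for *Slc25a15*. Leaving out 1 array gave an adjusted p as high as 0.220 for *Slc25a15* (without DDC-only array 2). The call of *Asl* and *Slc25a15* ended under median scaling and that of *Otc* ended with the mean over all probes of a gene.

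**Figure D2:**
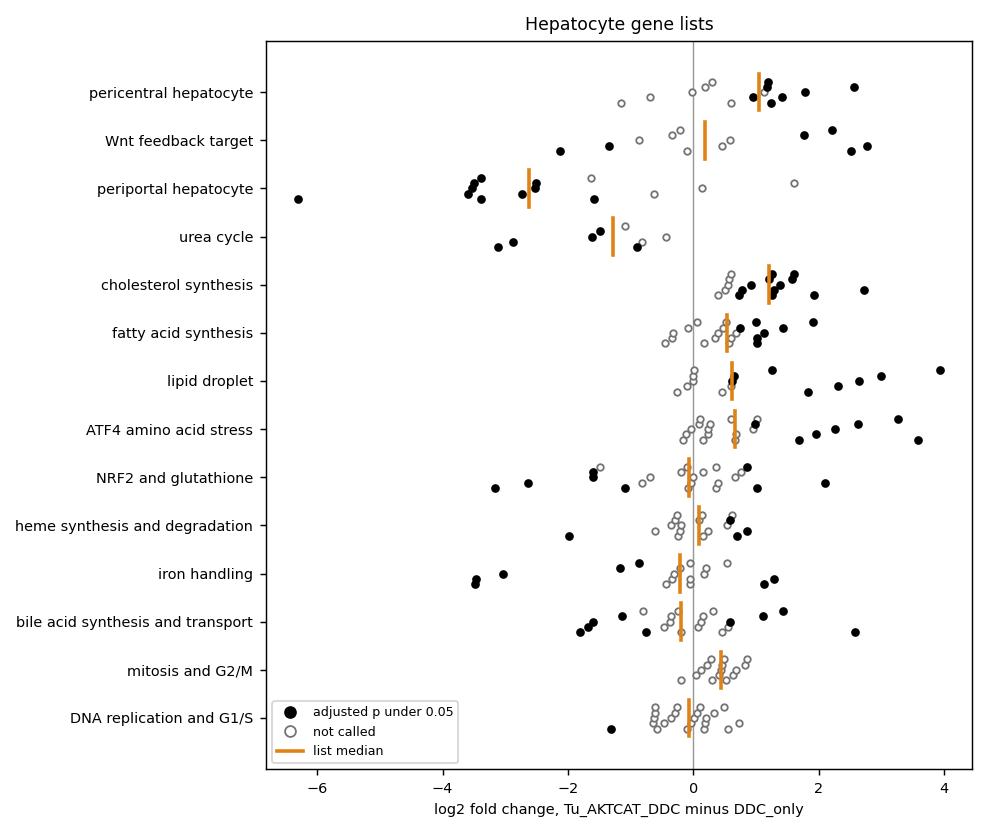
Log2 fold change, tumours minus DDC-only liver (x axis), of each tested gene of 14 hepatocyte lists (rows). Filled points are called genes, open points are not called, and orange bars are list medians, which run from -2.63 for periportal genes to 1.21 for cholesterol synthesis.

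Cholesterol synthesis was higher. Of 23 listed genes of cholesterol synthesis 17 were tested, and 12 were called higher and 0 lower, with a median of 1.21 and a lowest member at 0.40. *Mvd*, mevalonate diphosphate decarboxylase, read 11.47, 10.88, 11.31 and 11.10 in the tumours, against 9.41, 7.84 and 8.15 in DDC-only liver (difference 2.72 ± 0.48, adjusted p = 1.63e-04). *Idi1*, the isomerase that follows it, read 7.63, 7.15, 8.17 and 8.44 in the tumours, against 6.51, 5.68 and 5.60 in DDC-only liver (difference 1.92 ± 0.40, adjusted p = 0.00109). *Fdps*, farnesyl diphosphate synthase, read 14.38, 14.10, 14.36 and 14.25 in the tumours, against 13.44, 12.68 and 12.55 in DDC-only liver (difference 1.38 ± 0.23, adjusted p = 7.53e-05). DDC-only array 1 was the highest of its group in each of them. *Dhcr7*, the enzyme of the final reduction to cholesterol, read 11.31, 10.67, 11.10 and 11.18 in the tumours, against 9.93, 9.15 and 9.29 in DDC-only liver (difference 1.61 ± 0.29, adjusted p = 2.27e-04). *Hsd17b7*, of the post-lanosterol steps, differed by 1.58 ± 0.23. The DDC-only values of these 5 genes lay below the lowest tumour value. Across the list the calls were 7 with slide as a block and 6 on the shared slide alone. In the promoter windows of 14 tested members, the SREBP letters TCACNCCAC stood in 1, and in 0 of the 10 called members with an entry, against 1.05% of 32851 promoters.

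Fatty acid synthesis rose for part of its list. Of 22 listed genes 20 were tested, 7 were called higher and 0 lower, with a median of 0.55. *Me1*, malic enzyme, which supplies NADPH, read 10.93, 10.78, 10.66 and 10.57 in the tumours, against 8.64, 8.60 and 9.22 in DDC-only liver (difference 1.92 ± 0.30, adjusted p = 3.22e-05). The elongase *Elovl6* read 11.60, 11.67, 11.66 and 11.80 in the tumours, against 10.75, 10.41 and 9.62 in DDC-only liver (difference 1.42 ± 0.35, adjusted p = 0.00533). *Elovl5*, another elongase, differed by 1.13 ± 0.23. *Slc25a1*, the mitochondrial citrate carrier, differed by 1.02 ± 0.25, and *Acss2*, acetyl-CoA synthetase, by 1.02 ± 0.36, although another probe of *Acss2* gave -0.09. The core enzymes *Fasn* (0.60 ± 0.39), *Acaca* (0.39 ± 0.26) and *Scd1* (0.58 ± 0.30) and the factor *Srebf1* (-0.34 ± 0.25) were not called, with adjusted p of 0.341, 0.337, 0.200 and 0.411. The count of calls was 4 in all without DDC-only array 3. With a term for slide, the adjusted p was 0.0657 for *Slc25a1* and 0.206 for *Acss2*. Without 1 array, the adjusted p was as high as 0.0669 for *Elovl6* (without DDC-only array 3), 0.0731 for *Slc25a1* (without DDC-only array 3) and 0.154 for *Acss2* (without DDC-only array 3). The call of *Acss2* ended under median scaling and that of *Acss2* ended with the mean over all probes of a gene.

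Lipid droplet genes rose in part. Of 16 listed 15 were tested, 8 were called higher and 0 lower, with a median of 0.62. After *Mogat1*, *Cidec*, the fat-specific protein that fuses droplets, read 8.15, 7.63, 8.18 and 8.27 in the tumours, against 5.56, 4.93 and 4.72 in DDC-only liver (difference 2.99 ± 0.35, adjusted p = 4.04e-07). *Fitm1*, a droplet-forming protein of the endoplasmic reticulum, read 8.75, 8.37, 8.91 and 8.86 in the tumours, against 5.82, 5.92 and 6.48 in DDC-only liver (difference 2.65 ± 0.27, adjusted p = 3.89e-08). Both were low in DDC-only liver. *Plin4*, a perilipin coat protein, read 9.07, 8.84, 8.70 and 8.69 in the tumours, against 6.29, 6.55 and 6.74 in DDC-only liver (difference 2.30 ± 0.53, adjusted p = 0.00277). *G0s2*, an inhibitor of the lipase ATGL, read 11.59, 11.19, 10.34 and 10.77 in the tumours, against 8.90, 8.88 and 9.65 in DDC-only liver (difference 1.83 ± 0.47, adjusted p = 0.00659). The values of these 4 genes did not overlap between the groups. *Cidea*, the relative of *Cidec*, read 4.93, 4.56, 5.17 and 5.20 in the tumours, against 5.14, 5.26 and 4.49 in DDC-only liver, near the limit of detection in both groups. In fatty acid oxidation and ketogenesis, 4 of 18 tested genes (24 listed) were called higher and 0 lower, with a median of 0.23: the thioesterase *Acot1* (1.84 ± 0.47), *Cpt2* of the carnitine shuttle (0.78 ± 0.19), *Hadhb* of the trifunctional protein (0.73 ± 0.20) and the carnitine carrier *Slc25a20* (0.64 ± 0.17). Another probe of *Slc25a20* gave -0.59. Among these genes the calls were 1 on the shared slide alone, 4 higher and 1 lower with the replicate number as a block and 2 in all without DDC-only array 3. When slide was a block, the adjusted p was 0.0646 for *Hadhb*. Dropping a single array gave an adjusted p as high as 0.0622 for *Acot1* (without DDC-only array 1), 0.0970 for *Hadhb* (without DDC-only array 3) and 0.0618 for *Slc25a20* (without DDC-only array 3). The call of *Cpt2* ended on the shared slide alone and that of *Slc25a20* ended with the mean over all probes of a gene.

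The glycolysis and insulin output lists gave 3 calls, all of them lower. The glycolytic enzymes *Hk2* and *Aldoc*, called higher, are given with the fetal genes below. Of 13 tested glycolysis genes (19 listed), 0 were called higher and 1 lower (7.69%, against 16.3% of all genes), the glucose transporter *Slc2a2*, with 7.03, 7.26, 7.14 and 7.86 in the tumours, against 8.58, 8.43 and 7.90 in DDC-only liver (difference -0.98 ± 0.27, adjusted p = 0.0114). Other probes of *Slc2a2* gave -2.71 and -2.38. The number called was 1 higher under median scaling and 0 in all without DDC-only array 1. Of 12 tested genes of FOXO1 and insulin output (16 listed), 0 were called higher and 2 lower, a share (16.7%) near the 16.3% of all genes, with a median of -0.48. *Irs2*, the insulin receptor substrate that FOXO1 induces, read 5.07, 7.74, 6.52 and 7.40 in the tumours, against 8.77, 9.78 and 8.94 in DDC-only liver (difference -2.48 ± 0.64, adjusted p = 0.00700), with a wide spread among the tumours. *Igf1*, the growth hormone-dependent growth factor, read 9.21, 10.21, 10.86 and 10.69 in the tumours, against 11.76, 12.09 and 12.08 in DDC-only liver (difference -1.73 ± 0.37, adjusted p = 0.00116). *Pck1*, the gluconeogenic enzyme, read 4.53, 4.65, 4.74 and 5.52 in the tumours, against 5.87, 7.06 and 6.55 in DDC-only liver and was not called (-1.63 ± 0.64, adjusted p = 0.0787). Omission of 1 array gave an adjusted p as high as 0.0620 for *Slc2a2* (without DDC-only array 1) and 0.0532 for *Irs2* (without DDC-only array 2). The call of *Slc2a2* ended under median scaling.

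Genes of the ATF4 response to amino acid shortage rose in part. Of 23 listed 21 were tested, 7 were called higher and 0 lower, with a median of 0.67. *Asns*, asparagine synthetase, read 8.45, 8.65, 8.62 and 8.89 in the tumours, against 5.59, 4.70 and 4.93 in DDC-only liver (difference 3.58 ± 0.41, adjusted p = 4.04e-07), and another probe gave 2.09. The enzyme of the opposite reaction, *Aspg*, was among the largest falls. *Psat1*, of serine synthesis, read 8.79, 8.19, 7.77 and 8.77 in the tumours, against 5.41, 5.01 and 4.90 in DDC-only liver (difference 3.27 ± 0.47, adjusted p = 1.04e-05). *Aldh18a1*, of proline synthesis, read 8.17, 7.75, 8.37 and 8.05 in the tumours, against 6.37, 5.95 and 6.08 in DDC-only liver (difference 1.95 ± 0.37, adjusted p = 3.64e-04). In both genes each tumour value lay above each DDC-only value. *Chac1*, which degrades glutathione, read 7.74, 7.69, 8.21 and 7.40 in the tumours, against 5.49, 4.70 and 5.21 in DDC-only liver (difference 2.63 ± 0.49, adjusted p = 2.94e-04). The stress hormone *Fgf21* read 9.43, 9.78, 9.47 and 9.37 in the tumours, against 6.91, 7.46 and 7.40 in DDC-only liver (difference 2.25 ± 0.59, adjusted p = 0.00809). The tumours lay above DDC-only liver on each array for these 5 genes.

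Of 20 tested ATF4-list genes with a promoter entry, 6 held the ATF4 and C/EBP letters TGATGNAA on either strand in the 250 bases before the start, among them 3 of the 7 called genes, against 3.45% of 32851 promoters. These 3 windows are shown as the promoters of called genes that hold the letters, from RefSeq on GRCm38.p6, 5′ to 3′ on the strand of the gene, with the match in capitals. They are chr6:7693210-7693459 on the minus strand for *Asns*, chr2:119350992-119351241 on the plus strand for *Chac1* and chr7:45615491-45615740 on the minus strand for *Fgf21*. The match lies 23 to 16 bases before the start in *Asns*, and on the opposite strand 193 to 186 bases before it in *Chac1* and 139 to 132 in *Fgf21*. *Chac1* and *Fgf21* held the same 8 letters, TTGCATCA (the motif on the opposite strand), while *Asns* held TGATGAAA.
Asns: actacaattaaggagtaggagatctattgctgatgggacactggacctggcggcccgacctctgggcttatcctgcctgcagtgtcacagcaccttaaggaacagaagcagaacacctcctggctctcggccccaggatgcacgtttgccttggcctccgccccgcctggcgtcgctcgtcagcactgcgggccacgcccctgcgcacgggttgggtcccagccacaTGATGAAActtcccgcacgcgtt
Chac1: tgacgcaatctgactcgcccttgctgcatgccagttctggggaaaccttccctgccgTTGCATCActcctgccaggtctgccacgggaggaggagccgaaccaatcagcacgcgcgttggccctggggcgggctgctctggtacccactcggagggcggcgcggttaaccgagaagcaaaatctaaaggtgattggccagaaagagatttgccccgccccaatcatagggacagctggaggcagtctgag
Fgf21: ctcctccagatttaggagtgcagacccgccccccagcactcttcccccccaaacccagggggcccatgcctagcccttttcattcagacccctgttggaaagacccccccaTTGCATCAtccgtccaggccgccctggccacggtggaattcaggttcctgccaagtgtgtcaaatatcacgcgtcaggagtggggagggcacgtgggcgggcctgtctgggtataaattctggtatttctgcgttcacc

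Heme genes, whose pathway DDC blocks, gave 4 calls. Of 20 listed genes of heme synthesis and degradation 17 were tested, 3 were called higher and 1 lower, a share of 23.5% against 16.3% of all genes, with a median of 0.08. *Fech*, ferrochelatase itself, read 6.61, 6.87, 6.35 and 6.31 in the tumours, against 7.61, 6.68 and 7.13 in DDC-only liver (difference -0.60 ± 0.31, adjusted p = 0.202; 0.03 and -0.57 for other probes). *Alas1*, the rate-limiting first enzyme, read 13.83, 14.24, 13.49 and 14.36 in the tumours, against 14.17, 14.16 and 14.25 in DDC-only liver (difference -0.21 ± 0.31, adjusted p = 0.723). Neither was called, and the values of the groups overlapped. The 3 called higher were *Ppox*, protoporphyrinogen oxidase (0.86 ± 0.28), the porphyrin transporter *Abcb6* (0.70 ± 0.19) and *Uros*, uroporphyrinogen synthase (0.58 ± 0.19), of which another probe gave -0.36. *Hrg*, the heme-binding plasma protein, read 7.32, 8.15, 8.11 and 8.33 in the tumours, against 9.98, 9.89 and 9.997 in DDC-only liver (difference -1.98 ± 0.26, adjusted p = 2.39e-06). Calls in the list numbered 1 higher and 1 lower with slide as a block, 0 higher and 1 lower on the shared slide alone and 2 in all without DDC-only array 2. Given a block for slide, the adjusted p was 0.235 for *Ppox* and 0.256 for *Uros*. Leaving out 1 array gave an adjusted p as high as 0.261 for *Ppox* (without DDC-only array 3) and 0.112 for *Uros* (without DDC-only array 2). The call of *Ppox* and *Uros* ended with the mean over all probes of a gene and that of *Abcb6* ended on the shared slide alone.

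Hepcidin and BMP target genes were among the iron genes that fell. Of 19 listed genes 17 were tested, 2 were called higher and 5 lower, with a median of -0.22, which was 0.02 under median scaling. *Hamp*, hepcidin, the hormone that closes iron export, read 9.93, 10.10, 10.66 and 12.13 in the tumours, against 14.28, 14.28 and 13.96 in DDC-only liver (difference -3.47 ± 0.53, adjusted p = 2.12e-05). *Hamp2*, its paralog, read 8.94, 7.94, 7.14 and 7.48 in the tumours, against 11.57, 11.35 and 11.13 in DDC-only liver (difference -3.48 ± 0.88, adjusted p = 0.00587). Tumour array 4 had the highest *Hamp* of its group and still lay below the DDC-only arrays. The BMP target *Id1* read 6.58, 6.99, 6.85 and 7.37 in the tumours, against 10.17, 9.54 and 10.25 in DDC-only liver (difference -3.04 ± 0.46, adjusted p = 2.32e-05). *Smad6*, another BMP target, read 5.73, 5.96, 5.60 and 6.36 in the tumours, against 7.31, 6.71 and 7.25 in DDC-only liver (difference -1.18 ± 0.30, adjusted p = 0.00615). On the rising side, *Tfrc*, the transferrin receptor, read 11.21, 10.78, 10.37 and 10.83 in the tumours, against 9.10, 9.69 and 9.73 in DDC-only liver (difference 1.29 ± 0.32, adjusted p = 0.00503). With slide as a block, the adjusted p was 0.0820 for *Hamp2* and the difference was -4.16 for *Hamp*.

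Glutathione genes split. Of 27 listed NRF2 and glutathione genes 22 were tested, 3 were called higher and 5 lower, with a median of -0.06 (0.16 under median scaling). Glutathione transferases of the alpha class fell. *Gsta1* read 9.68, 9.66, 10.02 and 11.55 in the tumours, against 13.74, 12.51 and 13.94 in DDC-only liver (difference -3.17 ± 0.81, adjusted p = 0.00666). *Gsta2* read 9.43, 9.39, 9.65 and 11.50 in the tumours, against 13.22, 11.90 and 12.75 in DDC-only liver (difference -2.63 ± 0.61, adjusted p = 0.00278). *Gsta4* read 9.97, 9.62, 10.14 and 11.26 in the tumours, against 12.05, 11.70 and 11.77 in DDC-only liver (difference -1.59 ± 0.30, adjusted p = 3.32e-04). For *Gsta1*, *Gsta2* and *Gsta4*, tumour array 4 was the highest of its group, and probes of this family may read more than 1 member. *Mgst2*, a microsomal transferase, read 9.45, 7.11, 7.89 and 9.33 in the tumours, against 6.41, 5.52 and 7.08 in DDC-only liver and was higher (difference 2.11 ± 0.53, adjusted p = 0.00569). *Slc7a11*, the cystine transporter, read 4.68, 4.84, 5.11 and 5.78 in the tumours, against 8.50, 4.49 and 7.13 in DDC-only liver (difference -1.60 ± 0.55, adjusted p = 0.0427). It was high on DDC-only arrays 1 and 3 and as low as the tumours on DDC-only array 2. *Nqo1* and *Hmox1*, standard NRF2 targets, did not pass, at -0.81 ± 0.37 and -0.36 ± 0.30. Across the list the calls were 1 higher and 4 lower with slide as a block and 0 higher and 4 lower on the shared slide alone. After blocking on slide, the adjusted p was 0.0566 for *Mgst2* and 0.0625 for *Slc7a11*. Dropping a single array gave an adjusted p as high as 0.0622 for *Mgst2* (without DDC-only array 2) and 0.420 for *Slc7a11* (without DDC-only array 1). The difference was -2.71 for *Slc7a11* without DDC-only array 2. The call of *Slc7a11* ended under median scaling.

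Bile acid genes also moved both ways. Of 27 listed 21 were tested, 4 were called higher and 5 lower, with a median of -0.19 (0.00 under median scaling). *Cyp7a1*, the rate-limiting enzyme of bile acid synthesis, read 13.60, 13.72, 13.66 and 13.91 in the tumours, against 11.98, 12.14 and 12.76 in DDC-only liver (difference 1.42 ± 0.46, adjusted p = 0.0312). *Cyp8b1*, which sets the share of cholic acid, read 11.47, 11.14, 12.88 and 11.34 in the tumours, against 9.32, 7.48 and 10.57 in DDC-only liver (difference 2.58 ± 0.83, adjusted p = 0.0292), with a wide spread in DDC-only liver. The cholesterol exporter *Abcg5* read 9.81, 10.33, 10.56 and 11.01 in the tumours, against 12.04, 12.13 and 11.90 in DDC-only liver (difference -1.60 ± 0.37, adjusted p = 0.00282). Its partner *Abcg8* (-1.68 ± 0.46) and the prostaglandin transporter *Slco2a1* (-1.81 ± 0.33) were lower as well. The count of calls was 1 higher and 4 lower with slide as a block and 4 in all without DDC-only array 2. With slide blocked, the adjusted p was 0.137 for *Cyp7a1* and 0.185 for *Cyp8b1*. Omission of 1 array gave an adjusted p as high as 0.105 for *Cyp7a1* (without DDC-only array 1), 0.230 for *Cyp8b1* (without DDC-only array 2) and 0.0831 for *Abcg8* (without DDC-only array 3). The difference was 1.76 for *Cyp8b1* without DDC-only array 2.

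Drug-metabolizing P450s fell in part. Of 23 listed P450 and CAR or PXR targets 16 were tested, 1 was called higher and 6 lower, with a median of -0.62. *Nr1i3*, the CAR gene itself, read 6.37, 7.15, 7.38 and 7.79 in the tumours, against 9.67, 9.30 and 9.55 in DDC-only liver (difference -2.33 ± 0.42, adjusted p = 2.10e-04). *Cyp2c37* read 10.41, 11.70, 11.47 and 12.04 in the tumours, against 13.75, 14.002 and 13.85 in DDC-only liver (difference -2.46 ± 0.73, adjusted p = 0.0188). *Cyp2c50*, whose probe may read the same family, differed by -2.35 ± 0.70. *Cyp2d26* differed by -1.17 ± 0.21, and by -2.59 and -2.43 on other probes. *Cyp3a11*, the classical PXR target, read 13.30, 13.99, 13.38 and 13.92 in the tumours, against 14.54, 14.82 and 14.50 in DDC-only liver and was not called (-0.97 ± 0.57, adjusted p = 0.273). Among these genes the calls were 3 in all without DDC-only array 3. Leaving out 1 array gave an adjusted p as high as 0.0750 for *Cyp2c37* (without tumour array 1) and 0.0821 for *Cyp2c50* (without tumour array 1).

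Plasma proteins of the hepatocyte declined in part. Of 29 listed plasma protein and identity genes 25 were tested, 1 was called higher and 6 lower, with a median of -0.24. Under median scaling the median was 0.04. The number called was 1 higher and 1 lower under median scaling, 1 higher and 3 lower on the shared slide alone and 3 in all without DDC-only array 3. *Alb*, albumin, read 5.87, 5.53, 6.68 and 7.46 in the tumours, against 8.25, 8.10 and 8.12 in DDC-only liver (difference -1.77 ± 0.38, adjusted p = 0.00133). The *Alb* probe was dimmer than that of *Fetub* in both groups, and whether it reports the abundance of albumin RNA was not tested. *Fetub*, fetuin-B, read 9.79, 10.23, 11.25 and 11.04 in the tumours, against 11.98, 11.96 and 11.69 in DDC-only liver (difference -1.30 ± 0.39, adjusted p = 0.0208). *Serpinc1*, antithrombin, differed by -0.95 ± 0.24 and *Plg*, plasminogen, by -0.62 ± 0.17, although other probes gave 0.37 for *Serpinc1* and -1.90 and -0.28 for *Plg*. The fit ran on the brightest of these probes. *Foxa1*, a liver pioneer factor, read 8.86, 8.57, 8.53 and 8.46 in the tumours, against 7.50, 7.47 and 7.69 in DDC-only liver and was higher (difference 1.05 ± 0.26, adjusted p = 0.00447). Acute phase genes also fell in part. Of 22 tested (24 listed), 0 were called higher and 6 lower, with a median of -0.40. The 6 included *Apcs* (-1.42 ± 0.34), *Cd14* (-1.33 ± 0.37), *Serpina3n* (-1.17 ± 0.26), *Mt1* (-0.99 ± 0.34) and *C9* (-0.91 ± 0.23), of which other probes gave 0.13 and -0.94. Calls in the list numbered 3 on the shared slide alone. *Lcn2*, lipocalin-2, read 14.71, 14.30, 14.11 and 13.37 in the tumours, against 13.80, 13.63 and 13.04 in DDC-only liver, was high in both groups and was not called (0.63 ± 0.52, adjusted p = 0.468). In the fit blocked on slide, the adjusted p was 0.0733 for *Serpinc1*, 0.116 for *Cd14* and 0.0690 for *C9* and the difference was -2.45 for *Alb*. Without 1 array, the adjusted p was as high as 0.0982 for *Fetub* (without tumour array 1), 0.0614 for *Serpinc1* (without DDC-only array 3), 0.0666 for *Plg* (without DDC-only array 2), 0.0698 for *Cd14* (without tumour array 4) and 0.206 for *Mt1* (without DDC-only array 3). The call of *Fetub*, *Serpinc1*, *Plg*, *Mt1* and *C9* ended under median scaling and that of *Serpinc1* ended with the mean over all probes of a gene.

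Fetal and oncofetal genes rose in part. Of 19 listed 13 were tested, 5 were called higher and 0 lower, with a median of 0.27. *Scd2*, the desaturase of fetal liver, read 8.32, 9.28, 8.06 and 8.14 in the tumours, against 5.54, 5.45 and 5.49 in DDC-only liver (difference 2.95 ± 0.45, adjusted p = 2.27e-05). *Igf2bp3*, an oncofetal RNA-binding protein, read 8.39, 8.68, 8.23 and 8.43 in the tumours, against 6.27, 5.78 and 6.51 in DDC-only liver (difference 2.25 ± 0.49, adjusted p = 0.00155). The tumour values of both lay far above DDC-only liver. *Grb10*, an imprinted adaptor of growth factor receptors, read 9.32, 10.32, 10.83 and 9.02 in the tumours, against 8.12, 8.32 and 8.05 in DDC-only liver (difference 1.71 ± 0.48, adjusted p = 0.0125). *Hk2*, the hexokinase of fetal and tumour cells, differed by 1.38 ± 0.45 and *Aldoc*, aldolase C, by 0.96 ± 0.33. *Afp*, alpha-fetoprotein, was below detection on all 7 arrays, and *Gpc3* (0.27 ± 0.78) and *Igf2* (-1.88 ± 0.99) were not called. Across the list the calls were 2 with slide as a block, 4 higher and 1 lower on the shared slide alone and 3 in all without DDC-only array 2. With a term for slide, the adjusted p was 0.0735 for *Grb10*, 0.0813 for *Hk2* and 0.123 for *Aldoc*. Dropping a single array gave an adjusted p as high as 0.0615 for *Grb10* (without tumour array 3), 0.127 for *Hk2* (without DDC-only array 2) and 0.252 for *Aldoc* (without DDC-only array 3).

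Proliferation genes gave 1 call in all. Of 15 tested genes of mitosis and G2/M (22 listed), 0 were called in either direction in the limma fit (3 at an unadjusted p under 0.05), with a median of 0.44. *Cdk1* read 8.20, 7.85, 7.18 and 7.95 in the tumours, against 7.04, 7.64 and 7.14 in DDC-only liver (0.53 ± 0.37, adjusted p = 0.380). *Top2a* read 7.45, 6.94, 6.18 and 7.14 in the tumours, against 5.99, 7.15 and 7.51 in DDC-only liver (0.04 ± 0.37, adjusted p = 0.964), and the values of both genes overlapped. On the shared slide alone 1 gene of the list was called higher. Of 22 tested genes of DNA replication and G1/S (25 listed), 0 were called higher and 1 lower, with a median of -0.06 (0.15 under median scaling). The share called was 4.55%, against 16.3% of all genes. The call was the thymidine kinase *Tk1*, which read 8.36, 7.26, 7.66 and 8.35 in the tumours, against 8.97, 9.32 and 9.35 in DDC-only liver (difference -1.31 ± 0.30, adjusted p = 0.00292), and other probes gave -0.16 and -0.96. The medians of the mitosis list were 1.94 for AKT-CAT tumours without DDC minus PBS control liver, and 1.91 for DDC-only liver minus PBS control liver.

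The ductular and keratin genes that DDC is known for gave 6 calls. Of 24 listed biliary and progenitor genes 17 were tested, 1 was called higher and 2 lower, a share (17.6%) near the 16.3% of all genes, with a median of -0.21. Their summed linear intensity was 7227 to 9165 in the tumours and 6739 to 10007 in DDC-only liver. *Tspan8* read 5.35, 5.25, 6.14 and 6.04 in the tumours, against 9.34, 9.08 and 9.41 in DDC-only liver (difference -3.58 ± 0.77, adjusted p = 0.00153). *Krt23*, a stress keratin, read 7.52, 8.84, 9.23 and 8.56 in the tumours, against 11.60, 11.09 and 10.54 in DDC-only liver (difference -2.54 ± 0.78, adjusted p = 0.0237). *Cldn3*, a claudin, differed by 0.76 ± 0.20. The duct keratins *Krt19* (0.23 ± 0.68) and *Krt7* (1.16 ± 0.63) and the factor *Sox9* (-0.55 ± 0.53) were not called. The count of calls was 0 higher and 1 lower with slide as a block. Of 12 tested keratin and Mallory-Denk body genes (15 listed), 1 was called higher, the transglutaminase *Tgm2* (0.74 ± 0.22), and 2 lower, *Psmb8* of the immunoproteasome (-1.07 ± 0.33) and *Krt20* (-0.93 ± 0.29), which was below detection on each tumour array and at least 1.45-fold lower. Among these genes the calls were 1 higher and 0 lower with slide as a block, 0 higher and 1 lower on the shared slide alone and 1 in all without DDC-only array 2. *Krt8* (0.01 ± 0.27), *Krt18* (0.24 ± 0.30) and *Sqstm1* (-0.05 ± 0.24), whose products form the aggregates, were not called. When slide was a block, the adjusted p was 0.0516 for *Krt23*, 0.0542 for *Cldn3*, 0.102 for *Psmb8* and 0.0906 for *Krt20*. Omission of 1 array gave an adjusted p as high as 0.0890 for *Krt23* (without tumour array 1), 0.0803 for *Cldn3* (without DDC-only array 3), 0.162 for *Tgm2* (without DDC-only array 3), 0.0970 for *Psmb8* (without DDC-only array 3) and 0.123 for *Krt20* (without DDC-only array 2). The call of *Krt20* ended under median scaling.

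Most tested markers of Kupffer cells and macrophages fell. Of 18 listed Kupffer cell and macrophage genes 13 were tested, 0 were called higher and 11 lower, with a median of -1.79, and their summed intensity was 2288 to 5863 in the tumours and 15191 to 20422 in DDC-only liver. *Vsig4*, a complement receptor of resident macrophages, read 7.19, 8.78, 7.49 and 9.24 in the tumours, against 11.44, 11.996 and 11.92 in DDC-only liver (difference -3.61 ± 0.63, adjusted p = 1.35e-04). *Clec4f*, a lectin specific to mouse Kupffer cells, read 6.18, 8.03, 6.39 and 8.27 in the tumours, against 10.23, 10.74 and 11.06 in DDC-only liver (difference -3.46 ± 0.54, adjusted p = 2.82e-05). For *Vsig4* and *Clec4f*, tumour arrays 1 and 3 were the lower ones. *Folr2*, a folate receptor, read 5.48, 5.66, 4.35 and 5.41 in the tumours, against 7.23, 8.02 and 7.60 in DDC-only liver (difference -2.39 ± 0.39, adjusted p = 5.06e-05). *Laptm5*, a lysosomal protein of leukocytes, differed by -1.87 ± 0.30 and *C1qc*, of complement C1q, by -1.83 ± 0.39. Another probe of *Clec4f* gave -1.80. *Marco* was below detection on each tumour array and was not called (-1.33 ± 0.48, adjusted p = 0.0569).

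Macrophage genes of the injured liver fell in part. All 18 listed genes had a probe, 15 were tested, 0 were called higher and 10 lower, with a median of -1.63, and summed intensity was 24739 to 27084 in the tumours and 37271 to 44662 in DDC-only liver. *Gpnmb*, a marker of lipid-laden macrophages, read 7.99, 7.83, 7.34 and 7.78 in the tumours, against 10.60, 10.25 and 11.11 in DDC-only liver (difference -2.91 ± 0.84, adjusted p = 0.0162), although other probes gave -0.33, -1.20 and -0.15. *Mmp12*, macrophage elastase, read 5.17, 5.25, 4.92 and 5.03 in the tumours, against 7.65, 6.98 and 7.96 in DDC-only liver (difference -2.44 ± 0.37, adjusted p = 2.12e-05). *Lyz2*, lysozyme, read 6.81, 8.09, 8.73 and 8.36 in the tumours, against 9.78, 10.31 and 10.83 in DDC-only liver (difference -2.31 ± 0.32, adjusted p = 6.69e-06; -3.41 for another probe). The tumours were the lower group on each array. *Ccl2*, the chemokine that draws monocytes, read 5.32, 5.31, 5.58 and 5.20 in the tumours, against 8.13, 7.09 and 7.42 in DDC-only liver (difference -2.19 ± 0.32, adjusted p = 1.50e-05). *Cd52* differed by -1.72 ± 0.41. The tumour and DDC-only values did not overlap for any of these 5 genes, which were chosen as the largest calls of the list. In a fit with slide, the adjusted p was 0.0986 for *Gpnmb*. Leaving out 1 array gave an adjusted p as high as 0.0750 for *Gpnmb* (without DDC-only array 3).

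Endothelial markers fell in part. All 24 listed endothelial genes were tested, 0 were called higher and 11 lower, with a median of -0.84 and a summed intensity of 3460 to 7155 in the tumours and 10791 to 16916 in DDC-only liver. *Clec4g*, a lectin of sinusoidal endothelium, read 7.68, 9.76, 8.63 and 10.29 in the tumours, against 11.83, 12.59 and 12.88 in DDC-only liver (difference -3.34 ± 0.65, adjusted p = 5.00e-04). *Gpr182* read 4.65, 7.24, 5.63 and 7.19 in the tumours, against 8.09, 9.30 and 9.69 in DDC-only liver (difference -2.85 ± 0.56, adjusted p = 5.64e-04). *Fcgr2b*, the Fc receptor of these cells, read 5.70, 7.27, 6.86 and 7.23 in the tumours, against 9.01, 9.87 and 9.45 in DDC-only liver (difference -2.68 ± 0.52, adjusted p = 4.55e-04). Tumour arrays 1 and 3 were again the lower ones. *Oit3* differed by -2.54 ± 0.57 and *Dnase1l3* by -2.31 ± 0.58, whereas the general endothelial gene *Pecam1* was not called (-0.47 ± 0.37). The number called was 7 under median scaling and 5 in all without tumour array 1. Given a block for slide, the difference was -2.92 for *Dnase1l3*.

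Stellate cell and matrix genes fell in part, and 3 were called higher. Of 34 listed stellate cell, fibroblast and matrix genes 31 were tested, 3 were called higher and 14 lower, with a median of -0.69 and a summed intensity of 16423 to 24279 in the tumours and 42326 to 48035 in DDC-only liver. *Lum*, lumican, read 5.79, 8.17, 7.57 and 7.58 in the tumours, against 9.97, 10.60 and 10.06 in DDC-only liver (difference -2.94 ± 0.54, adjusted p = 2.76e-04). *Dcn*, decorin, read 9.86, 10.74, 10.63 and 12.003 in the tumours, against 13.38, 13.40 and 13.16 in DDC-only liver (difference -2.51 ± 0.33, adjusted p = 2.08e-06; -3.77 for another probe). *Ecm1* differed by -2.47 ± 0.40. Genes of quiescent stellate cells were among them. *Lrat*, which esterifies vitamin A for storage, read 4.46, 5.24, 4.54 and 6.23 in the tumours, against 7.35, 7.99 and 7.19 in DDC-only liver (difference -2.39 ± 0.43, adjusted p = 2.16e-04). *Reln*, reelin, read 8.71, 9.97, 9.97 and 10.31 in the tumours, against 11.91, 12.21 and 11.88 in DDC-only liver (difference -2.26 ± 0.29, adjusted p = 1.58e-06). The other 3 calls were higher in the tumours. *Acta2*, smooth muscle actin, read 9.28, 9.13, 9.005 and 8.45 in the tumours, against 7.30, 7.49 and 7.53 in DDC-only liver (difference 1.53 ± 0.52, adjusted p = 0.0424). *Col4a1*, a basement membrane collagen, read 12.48, 12.03, 12.59 and 12.28 in the tumours, against 11.42, 11.01 and 10.64 in DDC-only liver (difference 1.32 ± 0.27, adjusted p = 9.03e-04). *Lox*, lysyl oxidase, read 6.09, 6.74, 6.35 and 5.96 in the tumours, against 5.34, 4.99 and 4.97 in DDC-only liver (difference 1.19 ± 0.37, adjusted p = 0.0243). These 3 genes did not overlap between the groups. *Col1a1* (0.59 ± 0.53), *Col3a1* (-0.60 ± 0.39) and *Timp1* (-0.69 ± 0.46) were not called.

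Lymphocyte and neutrophil genes gave 3 calls, all of them lower. Of 12 tested T and NK cell genes (18 listed), 0 were called higher and 1 lower, the chemokine *Ccl5* (a share of 8.33%), and summed intensity was 874 to 1307 in the tumours and 1559 to 1956 in DDC-only liver. *Ccl5* read 5.95, 6.85, 7.80 and 7.75 in the tumours, against 9.72, 7.31 and 9.22 in DDC-only liver (difference -1.67 ± 0.54, adjusted p = 0.0333), with DDC-only array 2 inside the range of the tumours. Of 14 tested neutrophil genes (18 listed), 0 were called higher and 2 lower, a share (14.3%) near the 16.3% of all genes, and 8 of the 14 were below detection on each array of the tumours, as 8 were in DDC-only liver. *S100a8*, a calgranulin, read 4.76, 4.80, 4.81 and 4.95 in the tumours, against 7.25, 7.59 and 7.32 in DDC-only liver, at least 4.84-fold lower (difference -2.56 ± 0.64, adjusted p = 0.00560). *Cxcl1*, a neutrophil chemokine, read 9.23, 8.74, 8.29 and 8.76 in the tumours, against 10.66, 11.24 and 10.73 in DDC-only liver (difference -2.12 ± 0.45, adjusted p = 0.00134). *S100a9*, the partner of *S100a8*, read 4.80, 4.49, 4.62 and 4.54 in the tumours, against 6.09, 6.07 and 5.58 in DDC-only liver and was not called (-1.30 ± 0.69, adjusted p = 0.210). Calls in the list numbered 1 higher and 3 lower on the shared slide alone. With slide as a block, the difference was -2.35 for *Ccl5*. Dropping a single array gave an adjusted p as high as 0.199 for *Ccl5* (without DDC-only array 1). The difference was -2.39 for *Ccl5* without DDC-only array 2. The call of *Ccl5* ended under median scaling.

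Interferon-stimulated genes fell in part, and DDC-only array 2 stood apart in several of them. Of 25 listed interferon-stimulated genes 20 were tested, 0 were called higher and 8 lower, with a median of -0.70, and summed intensity was 7168 to 7826 in the tumours and 7548 to 20734 in DDC-only liver. *Rsad2*, viperin, read 6.52, 7.11, 8.33 and 7.20 in the tumours, against 12.21, 7.08 and 12.04 in DDC-only liver (difference -3.15 ± 0.72, adjusted p = 0.00264). DDC-only array 2 was as low as the tumours. *Cxcl10* read 6.80, 6.70, 6.44 and 6.12 in the tumours, against 10.17, 7.37 and 9.34 in DDC-only liver (difference -2.44 ± 0.51, adjusted p = 0.00110). *Isg15* read 8.10, 8.36, 8.19 and 8.02 in the tumours, against 10.33, 7.52 and 10.10 in DDC-only liver (difference -1.15 ± 0.39, adjusted p = 0.0412). The guanylate-binding genes were high on all 3 DDC-only arrays. *Gbp3* read 5.96, 6.38, 6.49 and 6.25 in the tumours, against 8.37, 8.42 and 8.80 in DDC-only liver (difference -2.26 ± 0.42, adjusted p = 3.31e-04). *Gbp2* read 6.72, 7.76, 7.09 and 7.45 in the tumours, against 9.55, 9.59 and 9.40 in DDC-only liver (difference -2.26 ± 0.48, adjusted p = 0.00124). Without DDC-only array 2, 9 genes of the list were called. Across the list the calls were 5 under median scaling, 5 with slide as a block, 2 on the shared slide alone and 5 in all without DDC-only array 3. After blocking on slide, the adjusted p was 0.176 for *Isg15*. Omission of 1 array gave an adjusted p as high as 0.318 for *Isg15* (without DDC-only array 1). The difference was -4.83 for *Rsad2* without DDC-only array 2, -3.24 for *Cxcl10* without DDC-only array 2 and -2.05 for *Isg15* without DDC-only array 2. The call of *Rsad2* ended in a fit of the compared groups alone and that of *Rsad2* and *Cxcl10* ended on the shared slide alone and that of *Isg15* ended under median scaling.

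Antigen presentation genes fell in part. All 16 listed MHC and antigen presentation genes were tested, 0 were called higher and 7 lower, with a median of -0.82. The class II gene *H2-DMb1* read 7.02, 7.58, 8.07 and 7.66 in the tumours, against 9.17, 9.64 and 9.48 in DDC-only liver (difference -1.85 ± 0.33, adjusted p = 1.67e-04). Its partner *H2-DMa* (-1.78 ± 0.39) and *H2-Ab1* (-1.67 ± 0.43, and -1.75, -2.69 and -1.91 on other probes) were lower, as was the class I gene *H2-T23* (-1.20 ± 0.21), of which another probe gave -0.15. *Tapbp*, tapasin, read 6.96, 8.26, 6.36 and 6.39 in the tumours, against 8.31, 8.33 and 8.16 in DDC-only liver (difference -1.28 ± 0.39, adjusted p = 0.0231), with tumour array 2 within the DDC-only range. The count of calls was 4 in all without DDC-only array 2. With slide blocked, the adjusted p was 0.382 for *Tapbp*. Leaving out 1 array gave an adjusted p as high as 0.0896 for *Tapbp* (without tumour array 3). The call of *Tapbp* ended with the mean over all probes of a gene. These class II genes are also made by macrophages, whose markers were lower in the tumours, and the part of cell makeup in the fall was not tested.

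**Figure D3:**
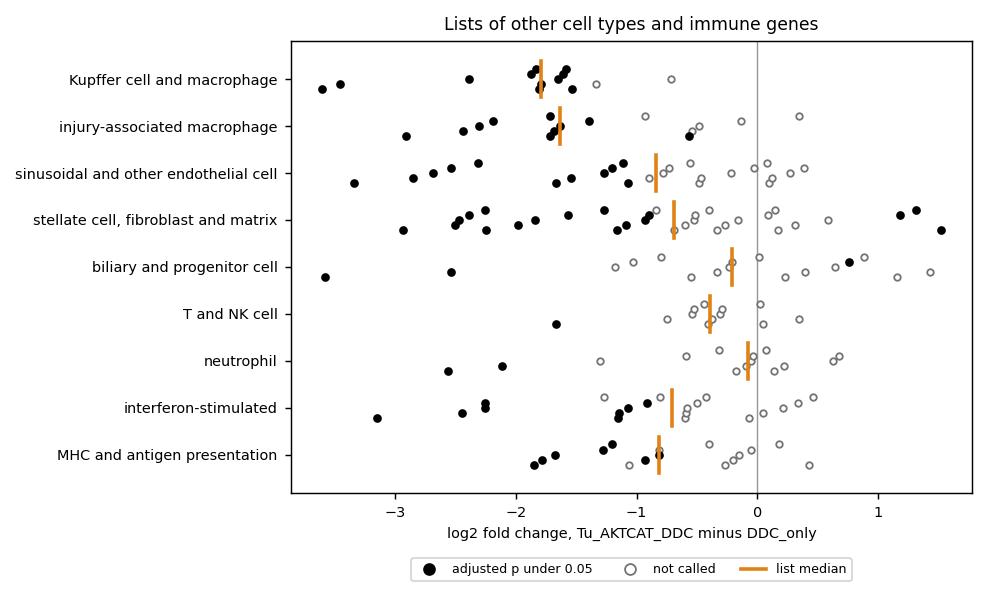
Log2 fold change, tumours minus DDC-only liver (x axis), of each tested gene of 9 lists of other cell types and immune genes (rows). Filled points are called, open points are not, and orange bars are list medians, which are below 0 for each list and lowest, at -1.79, for Kupffer cells and macrophages.

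The same tumour-to-control comparison exists without DDC, and the 2 comparisons share no arrays. The difference between them, (tumours minus DDC-only liver) minus (AKT-CAT tumours minus PBS control liver), was called for 2126 genes (19.7%), 1145 higher (10.6%) and 981 lower (9.11%). Of the 1752 genes called in the tumours against DDC-only liver, 693 (39.6%) had a called difference. Without DDC 3240 genes were called, and 543 genes were called in both with the same sign. The number of called differences was 1360 without DDC-only array 3. The slide of the PBS control arrays held no array of the AKT-CAT tumours without DDC, so that from these 2 groups alone slide and group cannot be told apart. The AKT-CAT DDC tumours lay on 2 slides and link them in the fit with slide as a block. That fit called 1458 differences, 780 higher and 678 lower.

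The difference was most negative in a pair of genes that were high in tumours of both kinds and in DDC-only liver, and low in PBS control liver. *Ubd*, the ubiquitin-like protein FAT10, averaged 12.61 ± 0.31 in AKT-CAT DDC tumours and 12.99 ± 0.65 in DDC-only liver, against 12.06 ± 0.37 in AKT-CAT tumours and 5.12 ± 0.86 in PBS control liver (SD, n = 4, 3, 4 and 3), a difference of -7.33 ± 0.66, adjusted p = 9.15e-09. *Ly6d*, a surface protein of the Ly6 family, averaged 12.58 ± 0.50 and 11.69 ± 0.20 with DDC, and 12.72 ± 0.78 and 5.36 ± 0.30 without (-6.47 ± 0.72, adjusted p = 6.72e-07). So tumour and control liver differed by -0.38 ± 0.47 for *Ubd* and 0.89 ± 0.51 for *Ly6d* with DDC, and by 6.95 ± 0.47 and 7.36 ± 0.51 without. Without DDC both stood out from PBS control liver, and with DDC neither was called. *Tspan8* (-5.80 ± 1.09), *Gsta1* (-5.72 ± 1.15) and *Guca2a*, a guanylin hormone (-4.51 ± 0.69), were lower in tumours than in control liver with DDC, whereas tumour minus control liver was 2.22 ± 0.77, 2.55 ± 0.81 and 2.47 ± 0.49 without it. For *Cyp4a12a*, a male-biased P450, tumour minus control liver was 1.70 ± 0.83 with DDC and 6.34 ± 0.83 without (-4.64 ± 1.17, adjusted p = 0.00613). The acetyltransferase *Nat8* (-4.34 ± 0.86) and *Cidea* (-4.34 ± 0.80) had differences of the same sign. *Cidea* averaged 4.97 ± 0.30 in AKT-CAT DDC tumours and 4.96 ± 0.41 in DDC-only liver, against 8.97 ± 0.57 in AKT-CAT tumours and 4.63 ± 0.11 in PBS control liver.

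Among the most positive differences, several genes were lower in tumours than in control liver without DDC and not called with it. *Ciart*, a repressor of the circadian clock, differed by 1.31 ± 0.50 with DDC and -3.11 ± 0.50 without, a difference of 4.42 ± 0.71, adjusted p = 8.12e-05. *Cyp4a14*, a PPAR-alpha target, gave 1.92 ± 0.76 and -2.26 ± 0.76 (4.18 ± 1.08, adjusted p = 0.00702), and *Mfsd2a*, a lysophospholipid transporter, 1.60 ± 0.61 and -2.42 ± 0.61 (4.02 ± 0.87, adjusted p = 0.00179). *Mup2* averaged 11.18 ± 1.37 in AKT-CAT DDC tumours and 6.75 ± 0.81 in DDC-only liver, against 14.43 ± 0.34 in AKT-CAT tumours and 14.07 ± 0.67 in PBS control liver (4.08 ± 1.02, adjusted p = 0.00582). The *Mup2* mean of the tumours with DDC lay between that of DDC-only liver and those of the groups without DDC. *Zfp395* (3.74 ± 0.64), *Dct*, dopachrome tautomerase (3.67 ± 0.62), *Ip6k2*, an inositol phosphate kinase (3.66 ± 0.80), and the pseudogene *Serpina4-ps1* (3.64 ± 0.87) followed. *Dct* was below detection on each of the 7 arrays with DDC. The sign and call of these 16 differences held under each alternative that was run.

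**Figure D4:**
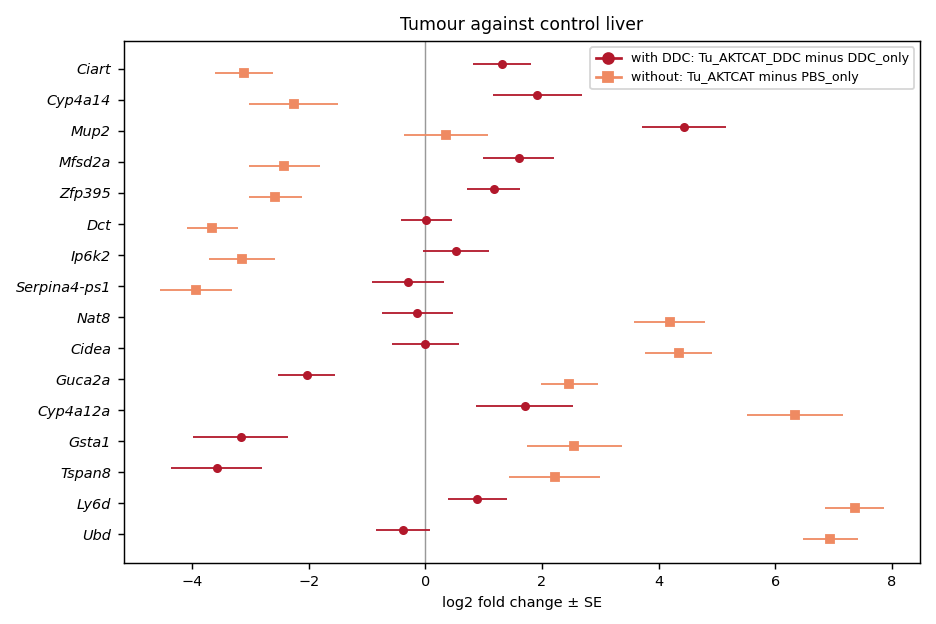
Log2 fold change of tumour against control liver (x axis, bars are standard errors) for the 16 genes with the largest differences between the comparison with DDC (red circles, Tu_AKTCAT_DDC minus DDC_only) and without (orange squares, Tu_AKTCAT minus PBS_only). The distance between the symbols is the difference, which runs from -7.33 for *Ubd* to 4.42 for *Ciart*.

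The lists split in the same test. Over all genes tested, 10.6% had a called difference upward and 9.11% downward. Of 17 tested cholesterol synthesis genes, 7 had a called difference upward and 0 downward, with list medians of 1.21 with DDC and 0.44 without. *Dhcr7* differed by 1.61 ± 0.29 with DDC and -0.20 ± 0.29 without (1.80 ± 0.41, adjusted p = 0.00289). Of 14 tested periportal genes, 7 had a difference downward and 2 upward, and *Cyp2f2* differed by -6.30 ± 0.67 with DDC and -2.11 ± 0.67 without (-4.19 ± 0.94, adjusted p = 0.00251). Of 15 tested injury-associated macrophage genes, 11 had a difference downward and 1 upward, with medians of -1.63 with DDC and 0.77 without. *Lyz2* is an example, at -2.31 ± 0.32 with DDC and 0.86 ± 0.32 without (-3.17 ± 0.45, adjusted p = 2.12e-05). Of 31 tested stellate cell and matrix genes, 14 had a difference downward and 0 upward, with medians of -0.69 and 0.39. Of 15 tested mitosis and G2/M genes, 9 had a difference downward and 0 upward, with medians of 0.44 and 1.94. *Axin2* (1.30 ± 0.49, adjusted p = 0.0558) and *Asns* (1.18 ± 0.59, adjusted p = 0.158) were higher in the tumours in both comparisons, and their differences did not pass. *Slc1a2* differed by 2.57 ± 0.66 with DDC and -0.31 ± 0.66 without (2.87 ± 0.93, adjusted p = 0.0279), with a lower level in DDC-only liver, at 7.74 ± 0.75, than in PBS control liver, at 10.91 ± 0.54.

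**Figure D5:**
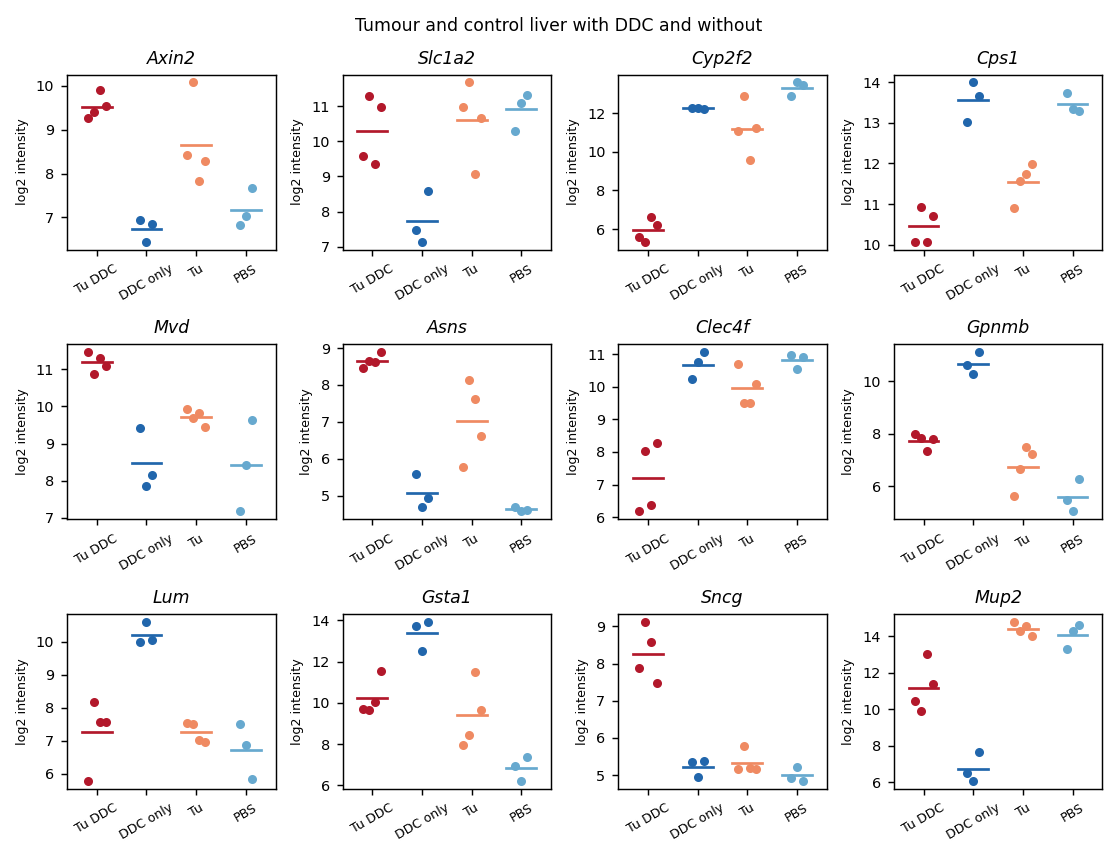
Log2 intensity (y axes, each gene on its own scale) of 12 genes chosen after their values were seen, on each array (points) of AKT-CAT DDC tumours, DDC-only liver, AKT-CAT tumours without DDC and PBS control liver, with group means as bars. *Gpnmb*, *Lum* and *Gsta1* are highest in DDC-only liver, while *Axin2*, *Mvd* and *Asns* are highest on average in AKT-CAT DDC tumours.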

How the data were processed

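RNA of 36 mouse liver arrays (Illumina bead arrays) in 10 groups was measured. The deposited intensity per probe came from GenomeStudio, per the submitters' processing notes (version not given in the sources used here), with a detection p-value per probe, per the file headers. Between 24.8% and 30.2% of the deposited signals per array were negative, which shows that a background subtraction came before deposit (its method is not given in the sources used here). The authors' normalized intensity values served as an alternative.

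Signals were corrected and quantile normalized with neqc of limma 3.58.1 (R 4.3.3, offset 16), which uses the detection p-values. Of 25697 probes, 23978 had 1 gene and 1719 none. Probes detected at p under 0.05 on at least 3 of 36 arrays were kept (14754), with the brightest per gene (10765 genes, 2834 of them with several probes). A single limma fit over all arrays, without covariates, gave each comparison, with Benjamini-Hochberg adjustment over all genes and a threshold of 0.05. On simulated data for the tumours against DDC-only liver, over 10765 genes, 6.0% of changes of 0.5 (log2), 74.0% of 1.0, 100.0% of 2.0 and 98.0% of 3.0 were called. The simulated noise was independent between arrays, without a slide effect or an outlying array, so these shares do not cover such features of the data. Bounds ("at least") set the group below detection at its lowest detectable level. Tables and figures were made with Python 3.11.15, pandas 2.3.3, numpy 2.4.6 and matplotlib 3.10.9.

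Members and lists were chosen with earlier results of these data known. Named were the 14 largest rises and falls among called genes without overlap, up to 5 called members per list (or defining members), the 8 largest differences with and without DDC in each direction, *Akt1*, *Ctnnb1*, *Fech* and *Alas1*. Other list members were named after their values were seen. Alternatives covered normalization, value source, floor, filter, probe choice, fitted groups, slide, variance prior, replicate number and left-out arrays.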

Additional observations from a re-analysis of the deposited data

Results flagged for a closer look

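In 4 named genes a tumour array lay apart from the other 3 by more than Dixon's limit for 4 values, which chance gives in about 1 of 20 groups, and 177 genes were looked at. *Acss2* read 12.90 on tumour array 3, and between 12.53 and 12.58 on the others. *Gsta2* read 11.50 on tumour array 4, and between 9.39 and 9.65 on the others. *H2-Ab1* read 10.43 on tumour array 1, and between 11.45 and 11.58 on the others. *Ly6d* read 13.33 on tumour array 2, and between 12.23 and 12.39 on the others. 

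The log2 difference between AKT-CAT DDC tumours and DDC-only liver was set against that between AKT-CAT tumours and PBS control liver. For 74 of the 177 named genes they differed in the limma test of the difference, against 19.7% of all genes tested. Some of the 177 were named for having the largest such differences. Most, 161, were called against DDC-only liver, a comparison that enters the same difference. The choice of genes thus raises their share, and 74 of 177 is no estimate for all genes. In 28 of the 74 the difference, with DDC minus without, was upward. It came to 4.42 for *Ciart*, 4.18 for *Cyp4a14*, 4.08 for *Mup2*, 4.02 for *Mfsd2a*, 3.74 for *Zfp395*, 3.67 for *Dct*, 3.66 for *Ip6k2*, 3.64 for *Serpina4-ps1*, 2.94 for *Mup6* and 2.87 for *Slc1a2*. It was also 2.69 for *Paqr9*, 2.68 for *Chac1*, 2.65 for *Cyp7b1*, 2.55 for *Plin4*, 2.003 for *Slc13a3*, 1.96 for *Acot1*, 1.89 for *Elfn2*, 1.80 for *Dhcr7*, 1.72 for *Rgn* and 1.27 for *Slc25a1*. Smaller values were 1.26 for *Tbx3*, 1.22 for *Abcb6*, 1.20 for *Ppox*, 1.09 for *Cpt2*, 1.03 for *Fitm1*, 0.94 for *Fdps*, 0.90 for *Hsd17b7* and 0.81 for *Slc25a20*. In 46 it was downward. The value was -7.33 for *Ubd*, -6.47 for *Ly6d*, -5.80 for *Tspan8*, -5.72 for *Gsta1*, -4.64 for *Cyp4a12a*, -4.51 for *Guca2a*, -4.34 for *Cidea*, -4.34 for *Nat8*, -4.19 for *Cyp2f2* and -4.06 for *Gpnmb*. It reached -3.73 for *Gsta2*, -3.64 for *Rsad2*, -3.55 for *Cxcl10*, -3.46 for *Lum*, -3.41 for *S100a8*, -3.28 for *Ntrk2*, -3.21 for *Mmp12*, -3.17 for *Lyz2*, -3.09 for *Vsig4* and -2.73 for *Clec4g*. Among the rest it was -2.63 for *Gdf10*, -2.61 for *Uroc1*, -2.59 for *Clec4f*, -2.56 for *Cldn1*, -2.48 for *Ccl2*, -2.46 for *Ftcd*, -2.39 for *Serpina1a*, -2.31 for *Cd14*, -2.27 for *Gldc* and -2.22 for *Serpina1c*. Values nearer to 0 were -2.10 for *Edem1*, -1.93 for *Sdcbp2*, -1.92 for *Cxcl1*, -1.88 for *Dcn*, -1.83 for *Tjp3*, -1.80 for *Laptm5*, -1.75 for *Isg15*, -1.68 for *Axl*, -1.58 for *Arg1* and -1.53 for *Reln*. The last were -1.29 for *Hrg*, -1.21 for *Serpina3n*, -1.18 for *Tgm2*, -1.13 for *H2-T23*, -1.06 for *C9* and -0.90 for *Ctnnb1*. Their adjusted p ran from 9.15e-09 (*Ubd*) to 0.04999 (*Hsd17b7*).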

How the results depend on the processing

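Of 161 named genes called in the AKT-CAT DDC tumours against DDC-only liver, 106 kept their call under each alternative, 34 lost it with slide as a block, 33 on the shared slide alone and 44 without 1 array. The 1752 calls became 1008 with slide as a block (946 of them the same calls), 854 on the shared slide alone, where 2 tumour arrays stood against 3, and 1075 to 1954 with 1 array left out. The cause was not tested. Median scaling gave 73.2% of calls higher in the tumours, against 55.0% with quantile normalization, and the called differences with DDC minus without were 67.4% higher under median scaling and 68.7% with the authors' normalized values, against 53.9%. These differences numbered 1360 to 2346 with 1 array left out. Some values that were not called changed sign. *Cidea* was -0.014 under median scaling, -0.033 with the authors' values, -0.038 with floored signals, -0.22 with slide as a block and on the shared slide, and -0.23 to 0.15 with 1 array left out. *Nat8* was 0.11 under median scaling and -0.40 to 0.21 with 1 array left out. *Dct* was -0.045 with slide as a block and on the shared slide and -0.038 to 0.068 with 1 array left out. *Akt1* was 0.082 with slide as a block and on the shared slide and -0.35 to 0.17 with 1 array left out, and *Ip6k2* was -0.13 to 1.01 with 1 array left out. Genes below detection in both groups have no measurable difference.

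The arrays share replicate numbers across the groups. Deviations of same-numbered arrays correlated at 0.20, 0.09 and -0.14, and those of differently numbered arrays at -0.40 to 0.33. With so few arrays, these values cannot decide whether the numbers pair the arrays. With the replicate number as a block, 1671 genes were called in the tumours against DDC-only liver and 2100 for the difference with and without DDC, 8 named genes lost their call, and *Dct* was -0.018.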

Other observations

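Sex-biased genes of the liver moved in both directions. Of 13 tested male-biased and Y-linked genes (20 listed), 3 were called higher and 1 lower in the AKT-CAT DDC tumours. *Mup6*, of the urinary protein cluster, read 10.23, 9.32, 12.10 and 10.78 in the tumours, against 8.98, 7.41 and 7.15 in DDC-only liver (difference 2.76 ± 0.58, adjusted p = 0.00109). *Cyp7b1*, an oxysterol hydroxylase, read 10.42, 10.004, 10.65 and 10.30 in the tumours, against 9.40, 9.12 and 9.19 in DDC-only liver (difference 1.10 ± 0.31, adjusted p = 0.0122). *Serpina1e*, of the alpha-1-antitrypsin cluster, differed by -1.47 ± 0.32. Of 10 tested female-biased genes (17 listed), 0 were called higher and 3 lower, *Ntrk2*, *Cyp2b13* and *Cyp2b9* (-2.79 ± 0.63). *Cyp2b13* read 7.43, 8.05, 7.01 and 7.97 in the tumours, against 10.76, 11.10 and 11.01 in DDC-only liver (difference -3.34 ± 0.68, adjusted p = 8.37e-04). *Xist*, the transcript of the inactive X chromosome, read 9.09, 8.92, 8.76 and 9.06 in the tumours, against 8.77, 9.17 and 8.19 in DDC-only liver and was not called (0.25 ± 0.31, adjusted p = 0.680). Calls in the male-biased and Y-linked list numbered 1 higher and 1 lower with slide as a block. Those in the female-biased list stayed at 0 higher and 3 lower. Under the slide block, the adjusted p was 0.0592 for *Mup6* and 0.0963 for *Cyp7b1*. Without 1 array, the adjusted p was as high as 0.0556 for *Cyp7b1* (without DDC-only array 2).

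Among 11 tested YAP and TEAD targets (16 listed), 2 were called higher and 2 lower. *Ptpn14*, a phosphatase that restrains YAP, read 10.25, 9.54, 10.22 and 9.85 in the tumours, against 8.35, 5.95 and 7.74 in DDC-only liver (difference 2.62 ± 0.51, adjusted p = 5.50e-04). *Nt5e*, the ectonucleotidase CD73, differed by 1.46 ± 0.32. *Axl*, a receptor kinase, differed by -1.70 ± 0.22 and *Ccn2*, connective tissue growth factor, by -1.43 ± 0.43. Among 10 tested claudin and tight junction genes (13 listed), *Cldn1* read 8.37, 8.22, 8.49 and 7.90 in the tumours, against 9.81, 10.59 and 10.38 in DDC-only liver and was lower (difference -2.01 ± 0.33, adjusted p = 6.63e-05). *Marveld3* (1.76 ± 0.40), *Cldn23* (1.13 ± 0.26) and *Tjp3* (1.12 ± 0.35) were higher, although another *Marveld3* probe gave 0.04. The number called was 1 higher and 1 lower on the shared slide alone. Of 16 tested p53 and senescence genes (18 listed), 2 were called higher, the kinase inhibitor *Cdkn2b* (1.62 ± 0.48) and *Zmat3* (0.71 ± 0.24), and 0 lower. This share, 12.5%, was below the 16.3% of all genes. Calls in the list numbered 0 with slide as a block, 1 on the shared slide alone, 1 with the replicate number as a block and 0 in all without DDC-only array 2. Of 15 tested endoplasmic reticulum chaperone genes (20 listed), 1 was called lower, *Edem1* (-1.41 ± 0.42), a share of 6.67% against 16.3% of all genes. Of 5 B and plasma cell genes and 6 erythroid genes, 0 were called in limma in either direction (0 of each at an unadjusted p under 0.05). In the fit blocked on slide, the adjusted p was 0.105 for *Ccn2*, 0.0767 for *Cdkn2b*, 0.0746 for *Zmat3* and 0.151 for *Edem1*. Dropping a single array gave an adjusted p as high as 0.105 for *Ccn2* (without DDC-only array 2), 0.200 for *Tjp3* (without DDC-only array 1), 0.139 for *Cdkn2b* (without DDC-only array 2), 0.172 for *Zmat3* (without DDC-only array 3) and 0.0806 for *Edem1* (without DDC-only array 2). The difference was 1.92 for *Ptpn14* without DDC-only array 2. The call of *Cldn23* ended on the shared slide alone.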
